A study of Mus musculus with 18 samples.

Results

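The genes described here code for the proteins that hold epithelial cells to each other and to the matrix beneath them: claudins, occludin and zonula occludens scaffolds, cadherins, protocadherins, catenins, nectins, Epcam, desmosomal proteins, connexins and integrins. They were matched by gene symbol alone, although the symbols were chosen with earlier results of these data known. In all, 108 probes for 106 genes matched among 10500 probes for 8841 named genes. The symbols also took in a few proteins that only share part of a name: Itgb1bp1, Itgb1bp2 and Itgb3bp bind integrin tails, and Ctnnbip1, Ctnnbl1 and Ctnnal1 bind or resemble catenins. Male BALB/c mice had been orchiectomised, so that every group lacked testicular androgen, and then carried a pellet with placebo or testosterone for 21 days. RNA of lacrimal, meibomian and submandibular glands was measured on 18 1-colour arrays, with pools A, B and C in each of the 6 groups of gland and treatment. A pool held 10 glands of 5 animals, although the labels also state 4 animals per sex and experiment. Whether a letter stands for the same animals in all 3 glands is not stated. No strain, genotype or operation other than these is given.

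Tight junctions seal the space between epithelial cells near the lumen. Claudins set which ions pass through the seal, occludin spans the membrane beside them, and the zonula occludens proteins Tjp1 and Tjp3 tie both to actin. Below them, cadherins and nectins form adherens junctions through catenins, desmosomes join keratin filaments of neighbouring cells, connexins form gap junction channels, and integrins bind laminin, collagen and fibronectin. In secretory glands, acinar cells depend on gap junctions and on leaky or tight paracellular paths for fluid secretion, whereas the meibomian gland is a sebaceous gland of the eyelid with a stratified, keratinised duct.

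Intensities were linear and scaled by the authors to an array median between 0.929 and 0.952. Of the 108 probes 70 were tested, for 69 genes. Another 37 did not lie above the 40th percentile of their array (0.518 to 0.646) on 3 arrays, with values from 0 to 0.816 and a median of 0.237, and Pcdh7 had too few values. The dim probes included 12 of 17 cadherins, among them Cdh5 of endothelium (0 to 0.481), and 7 of 12 integrin alpha subunits. Cldn3 and Jup had no probe. Changes are given as log2 differences of value plus 0.174 with the standard error (SE) of a limma fit of all 18 arrays, over 3 pools against 3, and a probe is called where its Benjamini-Hochberg adjusted p over 7463 tested probes was at most 0.05. The offset makes changes of low values smaller than they are on the linear scale, and the number of arrays limits precision. In whole glands, fewer cells of a type cannot be told apart from less RNA per cell. The highest value on an array was 597 to 1042 in the lacrimal, 134.6 to 219.1 in the meibomian and 636 to 743 in the submandibular gland, so comparisons between glands include a difference in array range. Summed lacrimal, meibomian and submandibular gland markers were highest in the placebo gland each is named for (664 to 710, 346 to 350 and 685 to 781). Sums of marker lists, here and below, also take in dim probes that were not tested.

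The first question was which junction and adhesion genes each gland expressed without testosterone. The glands differed by gene and by family. Cldn10 and the connexin Gjb1 were high in the lacrimal and submandibular glands, whereas in the meibomian gland Cldn10 was near the array median and Gjb1 far below it. The meibomian gland instead had the highest levels of Cldn1, Cldn4, Gja1, Gjb5 and 4 of 6 desmosomal probes. The lacrimal gland was marked by Pcdhb1 and Gja10 and by low Cdh1, and the submandibular gland by Cldn8, Ctnna2 and Itga3. Between placebo lacrimal and meibomian glands 52 of 70 probes were called, 29 higher and 23 lower in the lacrimal gland, against 67.9% of all tested probes (38.7% higher, 29.2% lower). After quantile normalization that split was 24 and 26. Between lacrimal and submandibular glands 29 were called, 17 higher and 12 lower in the lacrimal gland (44% of all, 26.2% higher and 17.8% lower), a split that was 14 and 15 after quantile normalization. Between meibomian and submandibular glands 45 were called, 20 higher and 25 lower in the meibomian gland (66.6% of all, 30.6% higher and 36% lower). These shares are near those over all tested probes.

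**Figure D1:**
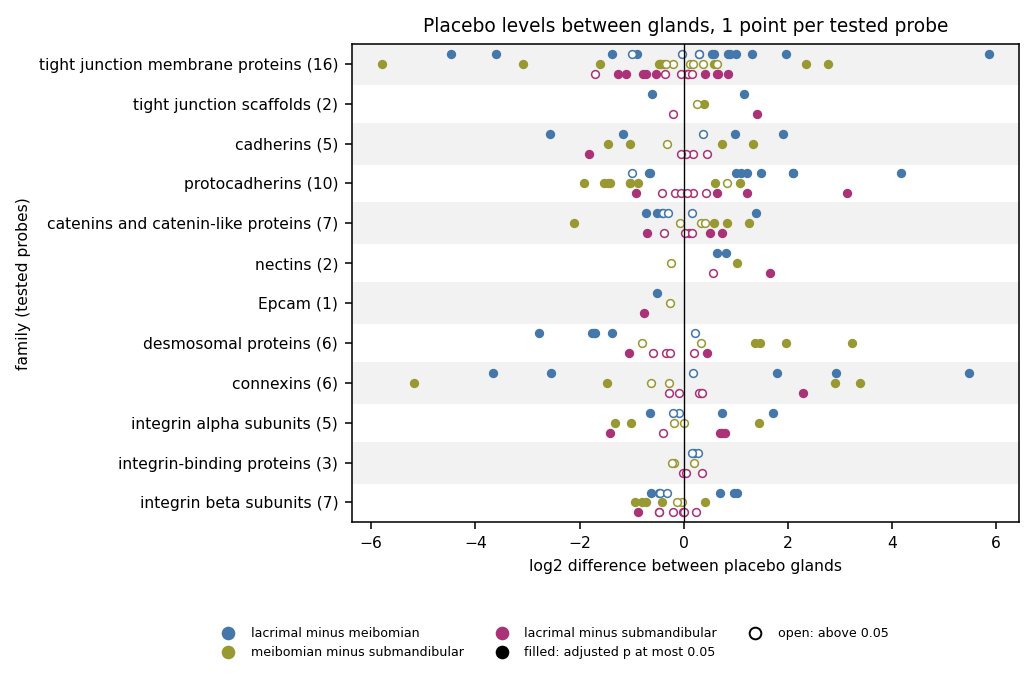
Log2 differences between placebo glands (x axis) by family (y axis, with the number of tested probes), 1 point per tested probe and colours for the pairs of glands. Filled points had a limma adjusted p of at most 0.05. Points at the far left and right include Cldn10 and Gjb1, low in the meibomian gland, and 4 desmosomal probes lay on the meibomian side against both other glands.

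Among tight junction proteins, Cldn10, which forms paracellular ion pores in secretory and renal epithelium, had intensities of 52.1, 63.5 and 74.3 in the placebo pools A, B and C of the lacrimal gland, then 66.5, 52.1 and 61.3 in the submandibular pools. The meibomian pools measured 0.924, 1.23 and 0.647. The lacrimal and submandibular pools overlapped (0.07 ± 0.20 log2, adjusted p = 0.81), and both lay far above the meibomian pools (5.86 ± 0.20, adjusted p = 3.44e-13, for the lacrimal gland). Cldn1, the claudin of the epidermal barrier, was reversed: 6.98, 5.43 and 7.92 in the meibomian gland, 0.689, 1.55 and 1.5 in the submandibular and 0.440, 0.353 and 0.388 in the lacrimal gland, with no overlap between glands and each pair called. Cldn4, a sealing claudin, measured 12.8, 13.3 and 11.8 in the meibomian gland and 0.371, 0.427 and 0.410 in the lacrimal gland. Submandibular pools A and B had 4.47 and 4.64, but pool C had 0.126. Cldn8, a claudin of renal collecting ducts, was highest in the submandibular gland (24.7, 22.5 and 23.3), lower in the lacrimal (8.36, 10.4 and 14.3) and lowest in the meibomian gland (2.36, 3.21 and 2.40). Ocln followed the order of meibomian (11.4, 10.6 and 9.73), submandibular (7.49, 6.85 and 6.58) and lacrimal gland (3.90, 4.08 and 3.94), with no overlap. Cldn7, a basolateral claudin, was also lowest in the lacrimal gland (9.31, 8.42 and 7.94). Cldn6 was highest in the submandibular gland and Cldn14 in the lacrimal gland, both at low intensities, and the endothelial claudin Cldn5 did not differ by the test between any pair (0.384 to 0.724 over the 9 placebo pools, adjusted p of 0.458 to 0.91).

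Adherens junction genes did not move as a block either. Cdh1, the E-cadherin of epithelia, measured 14.4, 14.9 and 17.6 in meibomian, 7.68, 10.3 and 10.1 in submandibular and 4.52, 1.94 and 1.74 in lacrimal placebo pools. The 3 glands did not overlap, and the lacrimal gland lay 2.56 ± 0.25 below the meibomian (adjusted p = 9.96e-08) and 1.82 ± 0.25 below the submandibular gland (adjusted p = 1.46e-05). Its partner Ctnnb1, beta-catenin, also a Wnt signal carrier, was lowest elsewhere: 5.48, 4.92 and 6.25 in the submandibular gland, against 9.12, 8.81 and 9.88 in the lacrimal and 14.8, 12.3 and 13.1 in the meibomian gland. Ctnna1, the alpha-catenin of epithelia, was highest in the meibomian gland (3.09, 2.27 and 2.18). The neural alpha-catenin Ctnna2 was highest in the submandibular gland (3.0, 1.92 and 2.55) and lowest in the meibomian (0.447, 0.400 and 0.472). Epcam, an adhesion protein of simple epithelia, measured 22.2, 26.6 and 26.2 in the lacrimal gland, below both the meibomian (35.9, 31.8 and 39.5) and the submandibular gland (41.3, 40.7 and 45.6).

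Desmosomal probes were the family most often called highest in the meibomian gland, 4 of 6 against 22.6% of all tested probes. In every lacrimal and submandibular placebo pool, Dsg1a and Dsp lay below the 40th percentile of the array. The filter asks for only 3 arrays above that level, so meibomian arrays alone could admit such probes. The count is therefore no support for a trait of the family. Dsg1a, a desmoglein of upper epidermis, measured 4.01, 3.13 and 3.76 there, 0.359, 0.415 and 0.365 in the lacrimal and 0.143, 0.351 and 0.227 in the submandibular gland. Dsp, the plakin that links desmosomes to keratin, measured 1.58, 1.38 and 1.53 in the meibomian gland against 0.229 to 0.558 over the 6 other placebo pools. Pkp3, a desmosomal plaque protein, measured 6.62, 6.97 and 7.03 in the meibomian gland against 1.32 to 2.26 in the others. Dsc2, a desmocollin, measured 5.74, 4.71 and 4.50 against 1.22 to 1.95. Groups of each gene were apart. Of 5 keratinocyte markers 4 were called higher in the meibomian than in the lacrimal gland, against 29.2% of all tested probes. The other, Lor, was called lower in the meibomian gland (mean 0.894) than in the lacrimal (1.44) and submandibular gland (1.56). Summed levels were 2.61 to 3.30 in the lacrimal, 5.85 to 6.51 in the submandibular and 205 to 259 in the meibomian gland. All 6 skeletal muscle markers were also higher there. No marker was at 0 on all arrays, and the part of these tissues in the desmosomal levels was not tested.

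Connexins divided the glands into opposite sets. Gjb1, connexin 32 of liver and exocrine acini, measured 8.96, 11.9 and 13.9 in the lacrimal and 8.67, 9.11 and 9.85 in the submandibular gland, but 0.0915, 0.0793 and 0.0861 in the meibomian gland (adjusted p = 1.53e-12 against the lacrimal gland). The meibomian values lay below the 40th percentile of their arrays, and with that percentile in their place Gjb1 was at least 21.7-fold higher in the lacrimal and at least 17.5-fold higher in the submandibular gland. Gja1, connexin 43, was reversed, with 9.80, 8.56 and 11.1 in the meibomian gland against 0.600, 0.534 and 0.708 in the lacrimal and 0.547, 0.827 and 1.01 in the submandibular gland (3.39 ± 0.29 above the submandibular gland, adjusted p = 3.26e-08). Gjb5, a connexin of epidermis, behaved like Gja1 in direction, with 4.07, 3.17 and 3.52 in the meibomian gland and at most 0.545 elsewhere. Gja10 was highest in the lacrimal gland, at 4.08, 4.00 and 4.11, against 0.471, 0.383 and 0.311 in the meibomian and 1.26, 1.05 and 0.193 in the submandibular gland. Gjb2, connexin 26, overlapped between the lacrimal (3.16, 3.22 and 3.04) and submandibular pools (3.93, 2.73 and 3.5).

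**Figure D2:**
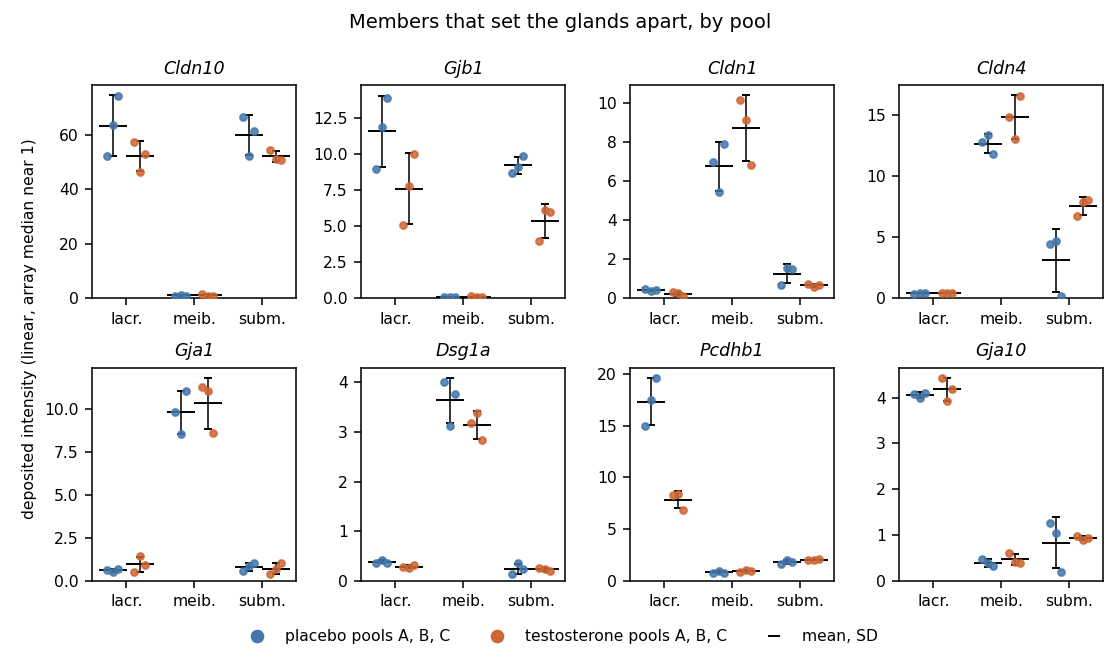
Deposited intensity (y axis, linear, from 0) of 8 genes in lacrimal, meibomian and submandibular pools (x axis), with placebo in blue and testosterone in orange, 1 point per pool, and black bars for mean and SD of 3 pools. Cldn10 and Gjb1 are low in the meibomian gland, where Cldn1, Cldn4, Gja1 and Dsg1a are highest, and Pcdhb1 and Gja10 are highest in the lacrimal gland.

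Of the protocadherins, cadherin relatives best known from neurons, 7 of 10 tested probes were called lowest in the meibomian gland, against 28.8% of all tested probes, and 2, Pcdhb8 and Pcdh12, were called highest there, against 22.6%. Pcdhb1 stood far above in the lacrimal gland, at 15.0, 17.4 and 19.6, against 1.65, 2.03 and 1.77 in the submandibular and 0.782, 0.898 and 0.714 in the meibomian gland (4.17 ± 0.13 above the meibomian gland, adjusted p = 7.38e-14). Pcdhb3 measured 3.95, 3.85 and 4.01 in the lacrimal gland, 1.66, 1.80 and 1.36 in the submandibular and 0.742, 0.791 and 0.840 in the meibomian gland. These genes lie in a cluster of near copies, and how far a probe also took up RNA of its neighbours was not tested. Pcdh15, a protocadherin of sensory hair cells, was highest in the submandibular gland (1.36, 1.33 and 0.903). Its meibomian values lay below the 40th percentile of their arrays (0.518 to 0.533). The shares over all tested probes also cover brighter probes, and the part of low intensity in the meibomian counts was not tested.

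Integrin subunits differed between placebo glands gene by gene. Itgb1, the beta subunit shared by most matrix receptors, was lowest in the meibomian gland (2.53, 2.53 and 2.25, against 6.56, 5.05 and 4.10 in the lacrimal and 5.02, 4.19 and 3.95 in the submandibular gland). Itga3, a laminin receptor subunit, was highest in the submandibular gland (1.72, 1.63 and 1.30, against 0.327 to 0.554 over the other placebo pools). Itgb4, the hemidesmosome subunit, passed the test between no pair of glands, with 0.862 to 2.01 over the 9 placebo pools and adjusted p of 0.156 to 0.657. Its partner Itga6 did not either (adjusted p of 0.561 to 0.752), and submandibular pool C had 0.274 of Itga6 against 2.73 and 3.52 in pools A and B. Itgax and Itgal, alpha subunits of leukocyte integrins, were highest in the lacrimal gland (1.79, 2.74 and 2.08 for Itgax), while Itgb2, their beta subunit, was not called between any pair (0.261 to 0.740).

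The second question was how these genes differed with testosterone in each gland. In the lacrimal gland 21 of 70 tested probes were called, 11 higher and 10 lower, against 28.1% of all tested probes (13.3% higher, 14.8% lower). These shares were close to each other, and the median change was -0.025 for the members and -0.069 over all tested probes. Cldn8 and Tjp3 fell the most, Pcdhb1, Dsc2 and Nectin4 fell, and Itgax, Itgb1bp2, Cdh1 and Nectin2 rose by 1.0 to 1.15 on the log2 scale. In 19 of the 21 the placebo and testosterone pools did not overlap. Over all 70 tested probes the pools did not overlap in 28 (40%), against 39.7% of all tested probes. The calls of Cldn8, Tjp3, Pcdhb1, Dsc2, Nectin4, Itgal, Itgax, Itgb1bp2, Cdh1, Gja4 and Itgb3, 11 of 21, held under every alternative setting run.

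Among lacrimal tight junction genes 2 of 16 membrane probes rose and 2 fell, and both scaffold probes fell. Cldn8 measured 8.36, 10.4 and 14.3 with placebo and 1.02, 3.06 and 2.83 with testosterone. The groups were apart, and the log2 difference was -2.27 ± 0.31 (adjusted p = 2.7e-05). Tjp3, a scaffold of tight junctions, measured 3.38, 3.86 and 3.5 with placebo and 0.775, 1.34 and 1.29 with testosterone (-1.55 ± 0.16, adjusted p = 1.44e-06), so that pools B and C came within the range of the other placebo glands (1.19 to 1.61) and pool A fell below it. Tjp1 fell from 5.82, 4.31 and 4.30 to 4.17, 3.24 and 3.21 (-0.42 ± 0.14, adjusted p = 0.0332). That call was lost with the lacrimal arrays alone and with placebo pool A, testosterone pool B or testosterone pool C left out. Cldn7 fell from 9.31, 8.42 and 7.94 to 5.92, 5.83 and 5.86 (-0.53 ± 0.18, adjusted p = 0.0364), with groups apart, although the call was lost with array weights and without any 1 of the 6 lacrimal pools. Cldn9 rose by 0.51 ± 0.15, with overlapping pools (2.77, 1.88 and 1.81 against 2.74, 3.31 and 3.22), and lost its call with the lacrimal arrays alone and without placebo pool B or C or testosterone pool B or C. Cldn6 rose by 0.47 ± 0.16 and lost its call in 12 of 28 settings, among them each single lacrimal pool left out except placebo pool B. Cldn10 (57.4, 46.3 and 53.1 with testosterone), Ocln (3.52, 3.72 and 3.06), Cldn4 (0.391, 0.407 and 0.391) and Cldn5 (0.289, 0.396 and 0.278) did not pass the test, with changes of -0.27 ± 0.20, -0.20 ± 0.13, -0.02 ± 0.67 and -0.56 ± 0.21. The SE of Cldn4 is that of the fit of all arrays, with the low submandibular placebo pool C among them. It is not the spread of the lacrimal pools.

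At lacrimal adherens junctions Cdh1 measured 4.52, 1.94 and 1.74 with placebo and 5.42, 5.02 and 5.40 with testosterone (1.03 ± 0.25, adjusted p = 0.00462). The groups were apart, but placebo pool A lay near the testosterone pools. Of 7 tested catenins and catenin-like proteins 0 rose. Ctnna1 fell from 1.54, 1.48 and 1.29 to 0.842, 1.0 and 1.15 (-0.46 ± 0.15, adjusted p = 0.0326, lost with array weights, with the lacrimal arrays alone and without placebo pool A or B or testosterone pool A or B), and Ctnnb1 measured 7.74, 7.22 and 10.4 with testosterone (-0.15 ± 0.14, adjusted p = 0.488). Both tested nectins changed, in opposite directions. Nectin2, an adhesion protein of epithelia and endothelium, rose from 3.04, 2.89 and 2.01 to 5.74, 5.55 and 4.95 (1.0 ± 0.32, adjusted p = 0.027, lost without placebo pool C or testosterone pool A or B). Nectin4, an epithelial nectin, fell from 6.06, 4.90 and 5.89 to 3.5, 3.60 and 3.49 (-0.64 ± 0.11, adjusted p = 0.000308), with groups apart. Epcam did not pass the test (25.5, 21.7 and 20.5 with testosterone, -0.15 ± 0.14). Pcdhb1, the gene that marked the placebo lacrimal gland, fell from 15.0, 17.4 and 19.6 to 8.31, 8.34 and 6.86 (-1.12 ± 0.13, adjusted p = 4.32e-06), still above every pool of the other glands. It was the only called protocadherin of 10.

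Lacrimal desmosomal genes split as well. Dsc2 fell from 1.65, 1.37 and 1.22 to 0.775, 0.732 and 0.720 (-0.79 ± 0.16, adjusted p = 0.00155), with the groups apart. Pkp1, a plaque protein also found in the nucleus, rose from 3.33, 3.47 and 3.61 to 5.99, 4.64 and 5.15 (0.57 ± 0.18, adjusted p = 0.0266), a call lost after quantile normalization and without placebo pool A or B or testosterone pool A or C. Dsp did not pass (0.362, 0.277 and 0.528 with testosterone, 0.12 ± 0.23). Of 6 tested connexins 2 rose and 1 fell. Gja4, connexin 37 of arterial endothelium, rose from 5.56, 5.32 and 5.38 to 7.2, 10.1 and 8.62 (0.65 ± 0.11, adjusted p = 0.000425). Gjb2 rose from 3.16, 3.22 and 3.04 to 4.02, 4.93 and 6.52 (0.66 ± 0.18, adjusted p = 0.0114, lost without testosterone pool C), with groups apart. Gjb1 fell from 8.96, 11.9 and 13.9 to 5.08, 7.73 and 9.96 (-0.63 ± 0.22, adjusted p = 0.0398), with overlapping pools and a call lost in 9 of 28 settings, among them without lacrimal placebo pool B or C, lacrimal testosterone pool A or B or any 1 meibomian placebo pool. Of the endothelial markers 0 of 9 were called, with summed levels of 6.86 to 8.66 under placebo and 6.41 to 6.99 under testosterone. By limma 2 of 9 had an unadjusted p under 0.05. All 9 had a change below 0, opposite to Gja4, with a median of -0.21 against -0.07 over all tested probes. The part of endothelium in the Gja4 change was not tested.

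Lacrimal integrins showed opposite changes of a pair of leukocyte alpha subunits. Itgax, CD11c of dendritic cells, rose from 1.79, 2.74 and 2.08 to 5.56, 4.52 and 5.08 (1.15 ± 0.18, adjusted p = 0.000131), and Itgal, CD11a of lymphocytes, fell from 0.758, 1.02 and 0.846 to 0.523, 0.540 and 0.423 (-0.64 ± 0.14, adjusted p = 0.0019). Groups were apart for both. Their partner Itgb2 measured 0.161, 0.196 and 0.436 with testosterone (-0.44 ± 0.22, adjusted p = 0.145). Of 10 leukocyte markers 1 rose, Cd79a, and 2 fell, Lcp1 and Coro1a, with summed levels of 48.3 to 54.2 under placebo and 57.3 to 79.1 under testosterone. That sum was carried by Cd79a (mean 33.3 with placebo and 47.6 with testosterone), while 7 of the 10 had a change below 0 and the median was -0.32. The part of leukocytes in the integrin changes was not tested. Itgb1bp2, melusin, an integrin-binding chaperone known from muscle, rose from 5.22, 5.53 and 5.17 to 13.1, 12 and 10.3 (1.12 ± 0.15, adjusted p = 2.34e-05). Itgb3 rose by 0.57 ± 0.12 at low intensity (0.450, 0.481 and 0.484 to 0.737, 0.909 and 0.714), and Itgb6, an epithelial subunit, by 0.46 ± 0.13 (2.27, 2.39 and 2.42 to 3.32, 3.39 and 3.21, lost with placebo pool A or with testosterone pool B left out). Itgb1 (4.38, 4.38 and 5.16), Itgb4 (1.55, 0.875 and 0.877) and Itga6 (1.21, 0.814 and 1.07) did not pass the test.

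In the submandibular gland 8 probes were called, 4 higher and 4 lower, against 13.8% of all tested probes (8.54% higher, 5.25% lower). At an unadjusted p under 0.05 there were 17, against 2046 of all 7463 tested probes. The count of calls was 3 with the submandibular arrays alone, where 5.48% of all tested probes were called. It was 3 without both pools C, a setting added after the data were seen, and 5 without testosterone pool A. Itgb2l and Ctnnal1 rose the most and were called in every setting run. In contrast to the lacrimal gland, the tight junction genes Cldn7 and Ocln rose. The pools of all 8 were apart. Over all 70 tested probes the pools did not overlap in 20 (28.6%), against 28.8% of all tested probes. The median change was -0.05 for the members and 0.01 over all tested probes.

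Itgb2l, an integrin beta subunit like that of leukocytes, measured 3.33, 2.24 and 2.03 with placebo and 10.2, 8.65 and 12.7 with testosterone (2.0 ± 0.17, adjusted p = 5.72e-07). Its other probe was dim, so that only 1 probe carries this change. Ctnnal1, alpha-catulin, rose from 0.656, 0.762 and 0.778 to 2.92, 2.10 and 1.45 (1.32 ± 0.20, adjusted p = 0.000272). Cldn7 rose from 12.2, 12.9 and 12 to 21.2, 18.8 and 22.3 (0.74 ± 0.18, adjusted p = 0.0111), which was lost with array weights and without both pools C. Ocln rose from 7.49, 6.85 and 6.58 to 9.52, 10.5 and 12.5 (0.62 ± 0.13, adjusted p = 0.00386), which was lost with the submandibular arrays alone and without both pools C. Tjp1 measured 5.43, 5.53 and 5.63 against 7.73, 6.12 and 6.16, with groups apart but no call (0.25 ± 0.14, adjusted p = 0.253).

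The falls were those of 2 connexins, a cadherin and an alpha-catenin. Gjb1 fell from 8.67, 9.11 and 9.85 to 3.97, 6.09 and 5.98 (-0.79 ± 0.22, adjusted p = 0.0226), lost with the submandibular arrays alone and without placebo pool B or C, testosterone pool A or both pools C. Gja4 fell from 4.67, 4.04 and 4.2 to 3.27, 3.22 and 3.33 (-0.38 ± 0.11, adjusted p = 0.0389), which was lost in 15 of 28 settings, among them each of the 6 submandibular pools left out. Endothelial markers were called in 0 of 9 cases there by limma (3 at an unadjusted p under 0.05), with sums of 8.39 to 9.89 under placebo and 6.48 to 9.47 under testosterone. Their median change was -0.15, with Eng, Tie1 and Ramp2 above 0. Cdh15, a cadherin of muscle, fell from 1.81, 1.05 and 0.899 to 0.898, 0.405 and 0.649 (-0.78 ± 0.25, adjusted p = 0.049), by the narrowest margin, and was lost in 20 of 28 settings. Of 6 skeletal muscle markers 3 also fell there, Atp2a1, Ckm and Tnnt3, with sums of 4.19 to 13.6 under placebo and 2.41 to 3.44 under testosterone, and their part in the Cdh15 value was not tested. Ctnna2 fell from 3.0, 1.92 and 2.55 to 1.54, 1.59 and 1.68 (-0.56 ± 0.14, adjusted p = 0.0152), lost with the submandibular arrays alone and without placebo pool A or C, testosterone pool A or both pools C. Cldn4 had the largest difference that missed the threshold: 4.47, 4.64 and 0.126 with placebo and 6.70, 7.90 and 8.06 with testosterone (2.03 ± 0.67, adjusted p = 0.057). Without placebo pool C the change was 0.70 with an adjusted p of 0.00199, a smaller change that passed the test. Itga6 (3.82, 3.77 and 4.48 with testosterone) also had its low value in that pool, with 1.31 ± 0.51 (adjusted p = 0.107) and 0.35 without that pool (adjusted p = 0.339). Cdh1, Ctnnb1, Ctnna1, Epcam, Cldn5, Cldn10, Dsp, Gja1, Gjb2, Itgb1, Itgb2 and Itgb4 were not called.

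**Figure D3:**
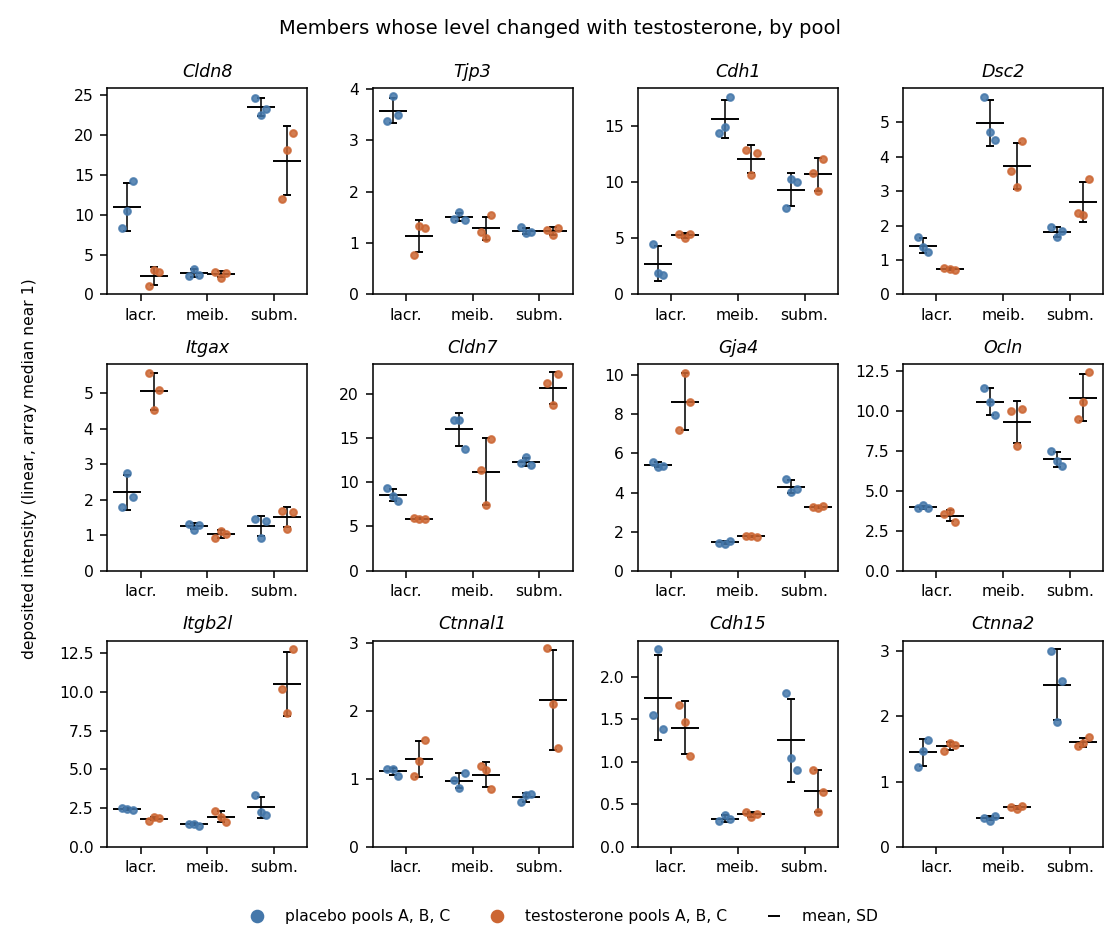
Deposited intensity (y axis, linear, from 0) of 12 genes in lacrimal, meibomian and submandibular pools (x axis), with placebo in blue and testosterone in orange, 1 point per pool, and black bars for mean and SD of 3 pools. Cldn8, Tjp3 and Dsc2 are lower with testosterone in the lacrimal gland, Itgb2l and Ctnnal1 are higher in the submandibular gland, and Cldn7 and Gja4 go opposite ways in these glands.

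Called in both glands were 3 genes: Gjb1 was lower with testosterone in both, Cldn7 fell in the lacrimal and rose in the submandibular gland, and Gja4 rose in the lacrimal and fell in the submandibular gland. Each gland's change was taken from its own placebo and testosterone pools, but the SE of both came from the fit of all arrays. These tests are therefore not independent. Lacrimal Gjb1 and submandibular Gja4 each lost the call with any 1 meibomian placebo pool left out. Whether pools of 1 letter came from the same animals in both glands is not stated. Promoters of these 3 genes and of Itgb2l are shown from RefSeq (GRCm38.p6), because these are the members called in both glands and the one with the largest submandibular change among called members. The table has 4 starts for Gjb1, 2 for Cldn7 and 1 for each of the other two. Each sequence is the 250 bases before the most upstream start, 5′ to 3′ on the strand of the gene, with capitals for the androgen receptor half-site (TGTTCT or AGAACA) and the Sp1 box (GGGCGG or CCGCCC). The positions are chrX:101376126-101376375 (plus strand) for Gjb1, chr11:69964529-69964778 (plus strand) for Cldn7, chr4:127314040-127314289 (minus strand) for Gja4 and chr16:96443615-96443864 (minus strand) for Itgb2l.
Gjb1: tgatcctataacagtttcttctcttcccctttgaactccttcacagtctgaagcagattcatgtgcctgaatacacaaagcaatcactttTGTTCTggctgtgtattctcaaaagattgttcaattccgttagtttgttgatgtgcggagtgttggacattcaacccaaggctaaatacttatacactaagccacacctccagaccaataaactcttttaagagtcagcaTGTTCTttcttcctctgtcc
Cldn7: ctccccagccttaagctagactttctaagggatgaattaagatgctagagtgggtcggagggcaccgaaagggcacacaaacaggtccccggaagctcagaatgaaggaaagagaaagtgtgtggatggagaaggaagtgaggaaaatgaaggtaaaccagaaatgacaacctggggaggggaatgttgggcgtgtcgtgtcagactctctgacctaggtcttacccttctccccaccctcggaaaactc
Gja4: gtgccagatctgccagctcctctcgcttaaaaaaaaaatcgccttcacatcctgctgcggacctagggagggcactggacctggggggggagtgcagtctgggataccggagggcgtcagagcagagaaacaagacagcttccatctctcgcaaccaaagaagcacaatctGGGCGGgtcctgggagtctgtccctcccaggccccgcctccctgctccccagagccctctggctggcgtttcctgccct
Itgb2l: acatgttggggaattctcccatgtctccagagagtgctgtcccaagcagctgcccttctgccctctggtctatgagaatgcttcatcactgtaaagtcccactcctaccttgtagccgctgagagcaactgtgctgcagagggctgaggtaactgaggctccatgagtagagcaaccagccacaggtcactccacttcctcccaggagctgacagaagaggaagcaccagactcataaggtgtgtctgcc
The printed Gjb1 window held 2 androgen receptor half-sites and the Gja4 window 1 Sp1 box. The printed Cldn7 and Itgb2l windows held neither of them, nor the other motifs searched, the TATA box (TATAAA or TTTATA) and the E-box (CACCTG or CAGGTG). The other Cldn7 start had 1 Sp1 box and 2 E-boxes before it. Of the 3 other Gjb1 starts, 2 had none of these motifs and 1 had 2 half-sites, 3 Sp1 boxes, 1 TATA box and 1 E-box, so the motifs found depend on the start. Of 106 genes 67 had a window in the table, 85 windows over all their starts. The half-site was in 16.5% of these and in 16.1% of all 32851 windows of the same length. The Sp1 box was in 47.1% against 32.7%, the E-box in 21.2% against 17.2% and the TATA box in 9.41% against 12.4%. A full androgen response element, both half-sites in inverted order with 3 free bases between, was in no window of the members and in 0.00913% of all windows. These matches describe letters in a window and are not sites.

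The third question was whether the testosterone change differed between the glands, and the difference of the changes itself was tested. Between lacrimal and submandibular glands 19 of 70 probes differed, against 24% of all tested probes. The largest were Itgb2l (-2.39 ± 0.24, lacrimal minus submandibular, adjusted p = 1.98e-06), Cldn8 (-1.75, adjusted p = 0.00736), Tjp3 (-1.54, adjusted p = 0.000104), Dsc2 (-1.29, adjusted p = 0.00062), Pcdhb1 (-1.28, adjusted p = 7.01e-05) and Cldn7 (-1.26, adjusted p = 0.00158). Of the barrier genes Tjp1 and Ocln also differed, by -0.67 and -0.82. In the other direction Gjb2 differed by 1.11 (adjusted p = 0.00441), with 4.02, 4.93 and 6.52 in lacrimal and 2.42, 2.62 and 2.19 in submandibular testosterone pools, and Gja4 by 1.02 (adjusted p = 0.000209). Between lacrimal and meibomian glands 10 differed, against 17.6% of all, led by Cldn8 (-2.21), Cdh1 (1.40), Itgax (1.39), Tjp3 (-1.33), Pcdhb1 (-1.32) and Itgal (-0.93). Between meibomian and submandibular glands 9 differed, against 7.4% of all, led by Itgb2l (-1.61), Cldn7 (-1.29), Ctnnal1 (-1.22), Dsc2 (-0.91), Ctnna2 (0.90) and Cldn18 (0.80, for 1 of its 2 probes). That count was 5 without both submandibular pools C and 5 without meibomian placebo pool A. Differences kept in every setting run were 15 of 19, 7 of 10 and 4 of 9 in this order of comparisons, and Tjp1 lost its call in 4 of 27 settings, Dsc2 (meibomian minus submandibular) in 6 and Cldn18 in 5. Comparisons of a gland with each other gland share its arrays.

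**Figure D4:**
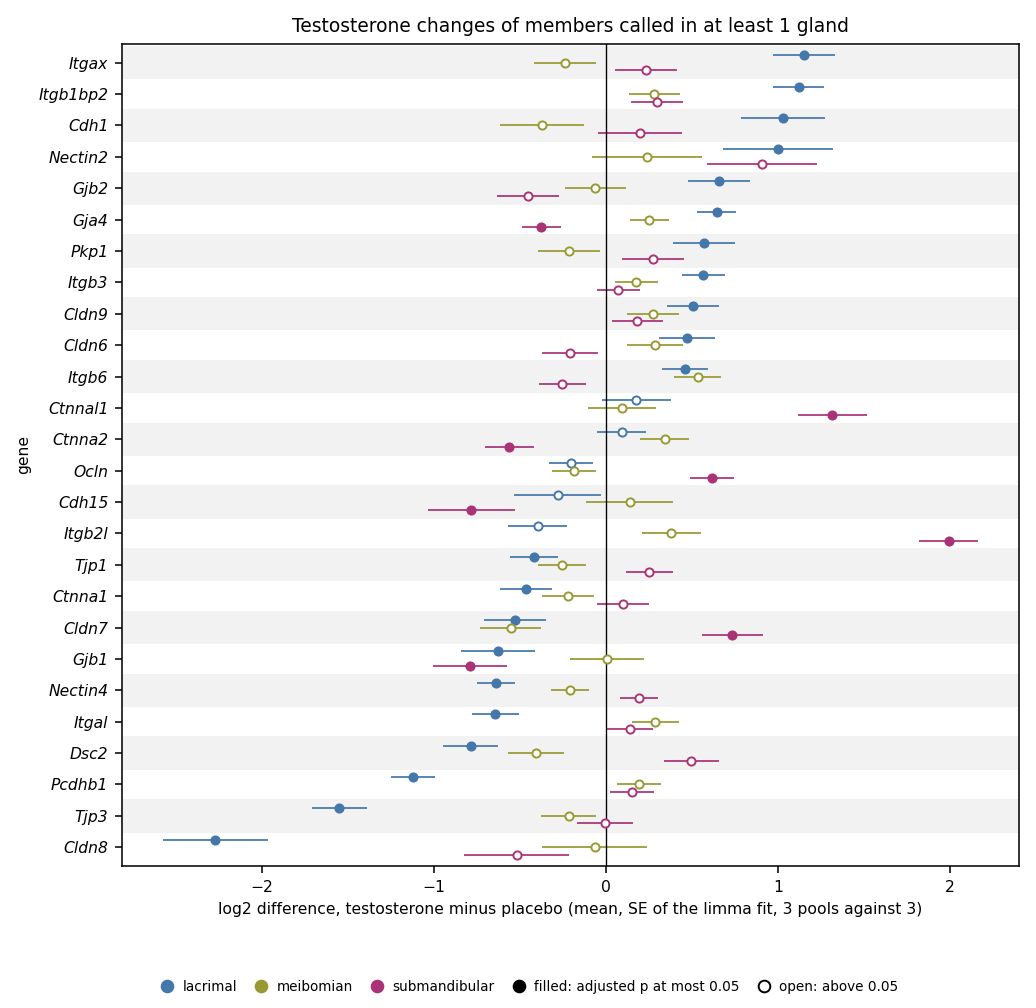
Log2 difference, testosterone minus placebo (x axis, mean and SE of the limma fit), of the 26 genes called in at least 1 gland (y axis), with colours for the glands and filled points for an adjusted p of at most 0.05. The 21 lacrimal and 8 submandibular calls share 3 genes, and no meibomian point is filled.

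In the meibomian gland 0 of 70 probes were called by limma in the fit of all arrays, against 0.59% of all tested probes. An unadjusted p under 0.05 was found for 13, against 1058 of all 7463 tested probes. The count of calls was 35 with array weights. The share over all tested probes was not counted there, so the 35 cannot be read as a result about these genes. It was 4 with the meibomian arrays alone (3.3% of all tested probes) and 1 without testosterone pool C. The 4 were Cldn18 and Pcdh15, higher with testosterone, and Ctnnd1 and Itgb2, lower. For Ctnnd1, p120-catenin that holds cadherins at the membrane, the pools measured 5.10, 5.31 and 5.20 with placebo and 3.22, 3.60 and 4.21 with testosterone, apart, at -0.49 ± 0.16 (adjusted p = 0.204 in the fit of all arrays). Itgb2 measured 0.630, 0.556 and 0.658 against 0.434, 0.402 and 0.349. Cldn18 measured 1.94, 1.95 and 1.85 against 3.18, 2.70 and 2.45, and Pcdh15 0.184, 0.172 and 0.198 against 0.332, 0.357 and 0.285. Cldn7 had the same size of change as in the lacrimal gland but a wide spread, from 17.1, 17.1 and 13.8 to 11.4, 7.42 and 14.9 (-0.55 ± 0.18, adjusted p = 0.189). Itgb6 measured 3.62, 3.71 and 3.83 with placebo and 6.85, 4.75 and 5.0 with testosterone, apart but not called (0.53 ± 0.13, adjusted p = 0.084). The genes that marked this gland, Gja1 (11.3, 11 and 8.60 with testosterone), Cldn1 (10.2, 9.14 and 6.85), Cldn4 (14.9, 13.1 and 16.6) and Dsg1a (3.18, 3.39 and 2.83), overlapped with their placebo pools and were not called. In this gland 25 of the 70 probes had pools that did not overlap (35.7%), against 35.9% of all tested probes.

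Genes that work beside the members were counted from lists. Of 25 tested junction scaffolds and linkers 1 rose and 4 fell in the lacrimal gland (median -0.16), and 5 rose and 1 fell in the submandibular gland (median 0.11). In the lacrimal gland Ppl, a desmosomal plakin, fell by 0.78 on the log2 scale (adjusted p = 0.00219), Vcl, vinculin, by 0.57, Ezr, ezrin, by 0.48 and Rdx, radixin, by 0.40, while Csrp1 rose by 0.43. In the submandibular gland Ezr rose by 0.83 (adjusted p = 0.00138), Jam2, a junctional adhesion molecule, by 0.70, Vasp by 0.62, Csrp1 by 0.60 and Ilk, the integrin-linked kinase, by 0.37, while Msn, moesin, fell by 0.91. Both submandibular means of Msn (0.574 with placebo, 0.224 with testosterone) lay below that percentile of their arrays. The median of all tested probes was -0.07 and 0.01 in these glands.

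Of 18 tested integrin ligands, basement membrane proteins and integrin-binding tetraspanins 3 rose and 3 fell in the lacrimal gland and 6 rose and 0 fell in the submandibular gland. Of all tested probes 28.1% and 13.8% were called in these glands. Lama2, a laminin chain, went opposite ways, -0.88 ± 0.17 in the lacrimal (adjusted p = 0.000924) and 0.86 ± 0.17 in the submandibular gland (adjusted p = 0.00283). Lacrimal Nid2 fell by 0.88 and Lamb3 by 0.48, while Cd151, a tetraspanin that binds laminin receptors, rose by 1.40, Col17a1 of hemidesmosomes by 0.91 and Cd9 by 0.51. Lacrimal testosterone means of Lama2 (0.454), Nid2 (0.325) and Lamb3 (0.416) lay below the 40th percentile of their arrays (0.562 to 0.646). In the submandibular gland Thbs1 (1.29), Tnc (1.14), Nid1 (1.12), Col4a1 (0.78) and Col4a2 (0.77) rose. Of 7 repressors and markers of the mesenchymal state, transcription factors among which several repress Cdh1 in other systems, Twist2 (3.42 ± 0.16), Zeb1 (0.99) and Snai1 (0.58) rose in the lacrimal gland, where Cdh1 rose too. In the submandibular gland Twist2 fell by 0.85 and Snai2 rose by 0.96. In the meibomian gland 0 genes of these 3 lists were called by limma. At an unadjusted p under 0.05 there were 7 of 25, 1 of 18 and 1 of 7, against 1058 of all 7463 tested probes.

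Other cell types moved with testosterone beside these results. Smooth muscle and myoepithelial genes fell in the lacrimal gland, 4 of 5 called, with sums of 23.2 to 26.9 under placebo and 10.8 to 12.9 under testosterone, and rose in the submandibular gland, 4 of 5 called, from 61.2 to 72.9 to 137 to 157. They are the same 4 genes, Acta2, Cnn1, Tagln and Myh11. Of 5 fibroblast genes 1 fell in the lacrimal and 3 rose in the submandibular gland (sums of 39.1 to 48.1 and 48.7 to 57.2 there). All 5 proliferation genes rose in the lacrimal gland, with sums of 2.11 to 2.66 and 20.0 to 32.5. The part of these cells in the junction and integrin changes was not tested.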

How the data were processed

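The authors deposited 1 intensity per probe and array, on a linear scale with array medians between 0.929 and 0.952. Background correction and scaling method were not given in the sources used here. Their scaling was kept, -1 (37 to 118 probes per array) was read as no value and other negatives were set to 0. Gene symbols came from the platform annotation, which named 1 gene for 8983 of 10500 probes. The genes and lists described here were chosen with earlier results of these data known, and genes given in full were those with the largest called changes or placebo differences plus a list of well-known junction genes. Values were transformed to log2(value + 0.174). A probe was tested where every group had 2 or more values and 3 or more arrays exceeded their own 40th percentile (7463 probes). limma 3.58.1 in R 4.3.3 fitted a mean per group over 18 arrays (12 residual degrees of freedom, eBayes with trend), with Benjamini-Hochberg adjusted p-values and a threshold of 0.05. The pipeline was tested on simulated data. Alternatives were another offset, filter, normalization, weighting, block or set of arrays, including each array left out. Pools of 1 letter showed no strong shared effect. Residuals of placebo and testosterone pools in the same gland correlated at -0.109 to 0.138 (9 pairs). Those of different glands under the same treatment correlated at -0.0647 to 0.132 (18 pairs). Such correlations cannot exclude that pools of 1 letter shared animals or a batch. Summaries and plots used Python 3.11.15, pandas 2.3.3 and matplotlib 3.10.9.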

Additional observations from a re-analysis of the deposited data

Results flagged for a closer look

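The testosterone change differed between 2 glands, by limma's test of the difference itself, in 38 cases over 23 genes. Each value is a difference of log2 changes, and the comparisons of a gland share its arrays.

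Lacrimal minus meibomian, the change was lower in the lacrimal gland for Cldn8 (-2.21), Tjp3 (-1.33), Pcdhb1 (-1.32), Itgal (-0.93) and Itgb2l (-0.78). It was higher there for Pkp1 (0.78), Ctnnd1 (0.79), Itgb1bp2 (0.84), Itgax (1.39) and Cdh1 (1.40). Ctnnd1 was called in neither gland by itself. Pkp1 lost this difference in 13 of 27 alternative settings, Itgb2l in 11 and Ctnnd1 in 6, and the other 7 genes kept it in every setting run.

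Lacrimal minus submandibular, the change was lower in the lacrimal gland for Itgb2l (-2.39), Cldn8 (-1.75), Tjp3 (-1.54), Dsc2 (-1.29), Pcdhb1 (-1.28), Cldn7 (-1.26), Ctnnal1 (-1.14), Nectin4 (-0.83), Ocln (-0.82), Itgal (-0.78) and Tjp1 (-0.67). It was higher there for Ctnna2 (0.65), Cldn6 (0.68), Itga3 (0.70), Itgb6 (0.71), Itgb1bp2 (0.82), Itgax (0.92), Gja4 (1.02) and Gjb2 (1.11). Itga3, a laminin receptor subunit, was called in neither gland by itself. Itga3 and Cldn6 each lost the difference in 16 of 27 settings, the replicate block among them, Ctnna2 in 7 and Tjp1 in 4, while the other 15 genes kept it in every setting run.

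Meibomian minus submandibular, the change was lower in the meibomian gland for Itgb2l (-1.61), Cldn7 (-1.29), Ctnnal1 (-1.22), Dsc2 (-0.91) and Ocln (-0.80). It was higher there for Gja4 (0.63), Itgb6 (0.79), Cldn18 (0.80) and Ctnna2 (0.90). Gja4 and Dsc2 each lost the difference in 6 of 27 settings, Cldn18 in 5, Ocln in 1 and Itgb6 in 1, while Itgb2l, Cldn7, Ctnnal1 and Ctnna2 kept it in every setting run.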

How the results depend on the processing

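The count of called members for the meibomian testosterone change, 0, became 35 with array weights. The share over all tested probes was not counted there, so the 35 cannot be read as a result about the members. It was 4 with the gland's arrays alone (3.3% of all tested probes) and 0 to 1 with an array left out. The submandibular count of 8 became 3 with the gland's arrays alone (5.48% of all tested probes). It was 3 without both submandibular pools C (added after seeing the data) and 5 to 9 with an array left out. The lacrimal count of 21 ran from 14 to 23 with an array left out. For differences between glands, array weights gave 19 (lacrimal minus meibomian, 10 in the report) and 18 (meibomian minus submandibular, 9 in the report), again without a counted share over all tested probes. The latter was 5 without both submandibular pools C and 5 to 12 with an array left out, and the former 7 to 13. Without a filter on dim probes 107 member probes entered the test. Then 84 were called between lacrimal and meibomian placebo glands, 61 higher and 23 lower in the lacrimal gland. Between meibomian and submandibular placebo glands 74 were called, 21 higher and 53 lower in the meibomian gland. Nearly all calls added in this way were thus lower in the meibomian gland. The share over all probes was not counted without the filter, so this direction cannot be read as a result about the members. Dim probes of other lists were often lower there too, such as Flt1 (placebo mean 0.069, lacrimal 0.383) and Lama1 (0.045, lacrimal 0.328). Lamb2, Cd3g and Mpdz instead had placebo means above the lacrimal ones. The part of low values on meibomian arrays in these counts was not tested. With the pool letter as a replicate block the counts were 21, 0 and 8 for the testosterone changes, 10, 17 and 10 for their differences and 52, 29 and 45 between placebo glands. The cause of these differences between settings was not tested. Of the called testosterone changes 11 of 21 lacrimal and 2 of 8 submandibular ones held in every setting run, as did 7 of 10 (lacrimal minus meibomian), 15 of 19 (lacrimal minus submandibular) and 4 of 9 (meibomian minus submandibular) differences, and 0 changed direction. Cldn6 lost its lacrimal call without any 1 lacrimal pool other than placebo pool B, and without meibomian placebo pool A or testosterone pool B. Cdh15 lost its submandibular call with 13 of 18 single arrays left out. Low intensities limit Gjb1 and Pcdh15 in the meibomian gland, and Itgb3, Itgal and Cldn5.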

Other observations

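Some members had 1 pool far below its partners. A value under 33.3% of both other pools of its group, where these were at least 1, occurred 10 times among the 70 tested probes, 8 of them in the submandibular gland. In submandibular placebo pool C these were Cldn4 (0.126), Gja10 (0.193), Itga6 (0.274) and Nectin2 (0.674), in testosterone pool C Cdh17 (0.421), Dsg2 (0.234) and Pkp3 (0.440), and in testosterone pool A F11r (0.455), while Pcdh1 was low in lacrimal placebo pool C (0.387) and meibomian placebo pool A (1.05). Over all tested probes such values numbered 0 to 136 per array, with the most in submandibular testosterone pools C (136) and A (125) and placebo pool C (83). Pcdh1 varied widely in other groups too, from 0.387 to 3.52 over all 18 arrays.

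Of the cadherins that passed the filter, Cdh13, a lipid-anchored cadherin, was highest in the meibomian placebo gland (1.01, 0.893 and 1.03, against 0.205 to 0.451 in the others). The F11r junctional adhesion molecule measured 11.2, 11.9 and 9.67 in the meibomian, 4.43, 6.0 and 5.93 in the lacrimal and 5.03, 8.10 and 8.28 in the submandibular placebo gland.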
